A study of Mus musculus with 2 samples.

Results

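Mouse chromosome 15 carries Kmt2d, the histone methyltransferase gene that was floxed in these animals, inside a block of unrelated genes for histone deacetylation, tubulin, membrane traffic, sugar transfer and other cell functions. The 43 genes described here, called its members below, lie on both sides of it, from 1.06 Mb towards the centromere to 1.82 Mb towards the telomere (GRCm38, GENCODE M21 positions), out of 31253 genes in the files. They were chosen by symbol and position, with earlier results of these data known, and are not every gene of the block. Kmt2d itself was not among the 43. Genes beside a targeted allele are of interest because DNA linked to that allele is inherited with it and can keep variants of the strain in which the targeting was done. Such linked DNA is present in every cell of a mouse, whereas a Cre recombinase expressed from the Foxp3 gene acts in cells that express Foxp3, the defining transcription factor of regulatory T cells (Treg cells). The comparison therefore set the genotype ratio in cells gated as Treg beside that in cells gated as other lymphocytes of the same libraries.

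Both groups were mice carrying Foxp3YFP-Cre, with either Kmt2d+/+ or Kmt2dfl/fl, and both therefore expressed the recombinase. Spleen cells sorted as CD4+ FoxP3+ were pooled from 3 mice per genotype, and each pool gave 1 single-cell 3' RNA library. The labels give no age, sex, strain history or position of the loxP sites. With 1 library per genotype there was no replicate check, no p-value was computed, and a difference belongs to these 2 pools. Intervals cover counting error only.

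The +/+ library held 53680614 UMIs (unique molecular identifiers, each standing for 1 captured RNA molecule) in 7947 barcodes, and the fl/fl library held 63989234 UMIs in 8784 barcodes. Only 15 barcodes were shared by the 2 libraries. After cells with under 500 genes or over 10% mitochondrial UMIs were left out, 7790 and 8634 cells remained. Cells were placed in 4 gates by raw counts of marker genes, none of which is among the 43. The Treg gate (CD3 genes, with Foxp3 or at least 3 Ikzf2 UMIs) held 4027 cells of the +/+ library and 3963 of the fl/fl library, the conventional CD4 gate 770 and 733, the CD8 gate 243 and 329, and the B gate 506 and 1239. The last 3 are called the non-Treg gates, and 2244 and 2370 cells lay outside all 4.

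The sort label did not describe every cell, since B and CD8 gates were filled in both libraries. The 9 Treg markers found in the files summed to 4694 CPM (UMIs scaled to the usual fixed total per gate) in the +/+ Treg gate and 4243 CPM in the fl/fl one, against 777 and 588 CPM in the conventional CD4 gate, 215 and 212 CPM in the CD8 gate, and 255 and 239 CPM in the B gate. Foxp3 and Ikzf2, which set the Treg gate, are among these Treg markers and were at 0 in the conventional CD4 gate by its rule. Ikzf2 alone gave 2214 and 2189 CPM in the Treg gate, so these sums were partly fixed by the gates. In that gate Il2ra was higher in fl/fl (287 and 382 CPM), and the other Treg markers were lower. The 10 B cell markers summed to 23.6 and 20.1 CPM in the Treg gate, with none at 0. The median Treg-gate cell had 0 UMIs of that list and 0 of the 6 CD8 markers, which summed to 391 and 437 CPM. In the conventional CD4 gate the same CD8 list summed to 472 CPM in +/+ against 2154 in fl/fl. Most of each sum was Ccl5 (359 and 1831 CPM) and Nkg7 (85.5 and 298 CPM). In that gate Eomes was at 6.12 and 9.98 CPM, Cd7 was lower in fl/fl (21.1 and 15.6 CPM), and the gate itself set Cd8a and Cd8b1 to 0. The cells of that gate thus differed in some of these markers between the libraries. The Treg gate has an arbitrary edge: 228 and 204 cells entered it on exactly 3 Ikzf2 UMIs with no Foxp3 UMI. A further 655 and 605 T cells with 1 or 2 Ikzf2 UMIs were left out. Only 889 and 717 cells of the Treg gate had a Foxp3 UMI. The conventional CD4 gate, set by the absence of Foxp3 and Ikzf2 UMIs, may therefore hold cells that express Foxp3. Its Ctla4 level was 335 and 284 CPM, against 103 and 116 CPM in the CD8 gate. Whether the recombinase had acted in cells of that gate was not tested.

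In the Treg gate the Foxp3YFP-Cre Kmt2dfl/fl library had lower levels of 3 neighbours of Kmt2d by at least 1.5-fold: Hdac7, Fmnl3 and Galnt6, which encode a histone deacetylase, an actin-assembling formin and a glycosyltransferase. These were 3 of the 27 members measured there, that is with at least 10 CPM in either library, and 9.49% of all 8064 genes measured in that gate were lower by the same rule (1.5-fold, with a 95% counting interval excluding 1). No member was higher by that rule in the Treg gate, where 2.48% of all genes were. Over the 3 non-Treg gates combined, 0 of 28 measured members were lower and 0 were higher, against 0.855% and 1.02% of all 8070 genes. A share of 3 in 27 is near the background of the gate, so it is no result about the block as a whole.

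Shifts smaller than 1.5-fold were seen in more members. The median log2 ratio of fl/fl to +/+ over the measured members was -0.19 in the Treg gate, where the median of all genes was -0.13 and that of measured chromosome 15 genes was -0.13. The members' median was -0.08 in the conventional CD4 gate, -0.07 in the CD8 gate and -0.04 in the B gate, beside -0.03, -0.05 and -0.05 for all genes. Because the bulk of genes in the Treg gate lay below 0, a member is read against -0.13 there: 18 of 27 lay below it and 9 above. By a rule chosen after the values were seen, the counting interval lay wholly below 0 for 17 of 27 members in the Treg gate, where this held for 51.6% of all genes, and wholly above 0 for 5 of 27, where it held for 16.1%. In the non-Treg gates combined the interval lay below 0 for 6 of 28 members (19.7% of all genes) and above 0 for 1 (11.1%).

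**Figure D1:**
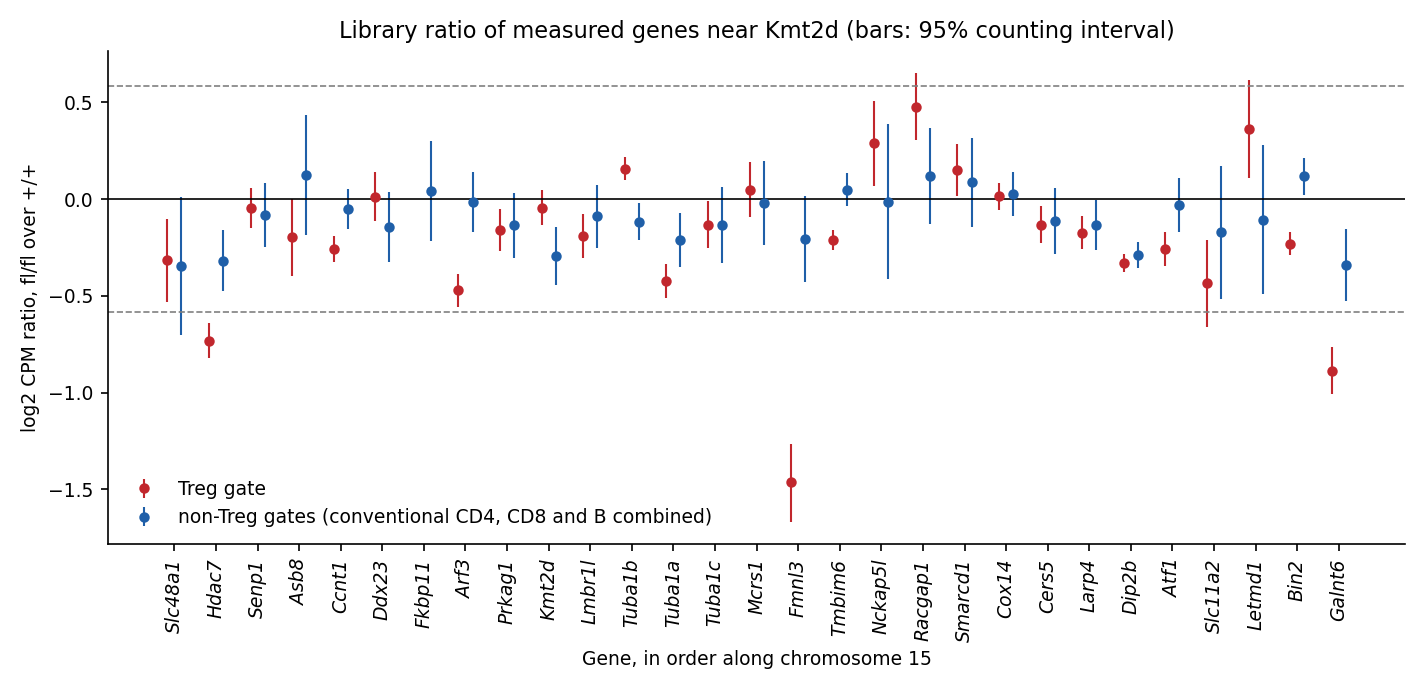
Log2 ratio of fl/fl to +/+ CPM for each measured member in chromosome order, in the Treg gate and in the non-Treg gates combined, with 95% counting intervals, Kmt2d included for reference and 1.5-fold as dashed lines. In the Treg gate Fmnl3 at -1.46, Galnt6 at -0.89 and Hdac7 at -0.73 lie beyond 1.5-fold, and no member does so in the non-Treg gates.

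The start regions of the 3 called genes, and of Dip2b, whose ratio was alike in all 4 gates, are printed because these are the 4 members on which the comparison turns. Each is the 250 bases before the RefSeq gene start (GRCm38.p6), written 5' to 3' on the gene's own strand, with capitals marking the GC box letters GGGCGG on either strand. The Hdac7 region is chr15:97844503-97844752 (minus strand), that of Fmnl3 is chr15:99370483-99370732 (minus), that of Galnt6 is chr15:100729377-100729626 (minus), and that of Dip2b is chr15:100038414-100038663 (plus).
Hdac7: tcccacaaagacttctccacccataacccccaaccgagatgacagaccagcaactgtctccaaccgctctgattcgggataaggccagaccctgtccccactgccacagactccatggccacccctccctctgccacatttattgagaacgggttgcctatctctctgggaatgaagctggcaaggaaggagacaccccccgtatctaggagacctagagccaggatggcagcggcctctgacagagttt
Fmnl3: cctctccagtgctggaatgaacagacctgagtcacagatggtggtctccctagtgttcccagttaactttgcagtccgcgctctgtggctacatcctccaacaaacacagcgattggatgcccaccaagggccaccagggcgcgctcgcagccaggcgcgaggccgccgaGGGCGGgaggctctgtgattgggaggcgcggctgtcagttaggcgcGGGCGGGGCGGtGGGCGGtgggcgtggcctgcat
Galnt6: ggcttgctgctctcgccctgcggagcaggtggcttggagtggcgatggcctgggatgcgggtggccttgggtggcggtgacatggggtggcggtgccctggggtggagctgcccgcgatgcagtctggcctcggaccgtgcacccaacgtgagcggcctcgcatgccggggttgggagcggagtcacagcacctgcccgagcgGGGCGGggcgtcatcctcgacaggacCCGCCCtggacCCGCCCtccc
Dip2b: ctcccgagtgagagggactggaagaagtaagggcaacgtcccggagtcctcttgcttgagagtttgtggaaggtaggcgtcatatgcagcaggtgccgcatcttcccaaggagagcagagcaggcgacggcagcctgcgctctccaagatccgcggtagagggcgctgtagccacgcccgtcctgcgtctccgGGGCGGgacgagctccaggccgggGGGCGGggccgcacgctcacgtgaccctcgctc
The Fmnl3 region has 4 GC boxes, that of Galnt6 has 3, that of Dip2b has 2 and that of Hdac7 has none. GC content was 56.4% in Hdac7, 65.2% in Fmnl3, 72.8% in Galnt6 and 66.4% in Dip2b, with 6, 19, 22 and 23 CpG pairs. At least 1 GC box was found in 28 of the 49 start regions matched to 35 members, and in 32.7% of all 32851 start regions of the table. The ETS letters CCGGAAG (9 of 49, against 6.91%), the forkhead letters TGTTTAC (1 of 49, 3.17%), the CRE letters TGACGTCA (1 of 49, 1.55%) and the RUNX letters TGTGGTT (1 of 49, 4.40%) were searched on both strands too, and none of these 4 motifs was in the regions printed. A match or its absence describes the letters in this window.

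Of the 9 regulators of histones and transcription, 5 were measured in the Treg gate, and Hdac7 had the largest difference among them. Hdac7 is a class IIa histone deacetylase that moves between nucleus and cytoplasm on antigen receptor signalling in T cells. Its level was 90.8 CPM in the +/+ library (2438 UMIs) and 54.7 CPM in the fl/fl library (1740 UMIs), a log2 ratio of -0.73 (95% interval -0.82 to -0.64), or 1.66 times lower in fl/fl. It was also lower in fl/fl in each other gate: 59.9 and 49.1 CPM in conventional CD4 cells (-0.29, -0.55 to -0.02), 99.4 and 78.2 CPM in CD8 cells (-0.35, -0.65 to -0.05), and 49.1 and 39.1 CPM in B cells (-0.33, -0.59 to -0.06). The direction was thus shared by all 4 gates, and the Treg ratio was further from 0 than the non-Treg ratio of -0.32 by -0.41 (-0.59 to -0.23). All 4 intervals lay below 0 for Hdac7 and Dip2b, 2 of the 22 members measured in every gate, a pattern found in 1.15% of the 6986 genes measured in every gate; 0.988% had all 4 above 0, and no member did.

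Ccnt1 and Atf1 were lower in fl/fl Treg-gate cells, and their intervals over the non-Treg gates combined included 0. Ccnt1, the cyclin of the P-TEFb kinase that releases paused RNA polymerase, was at 130.9 CPM in the +/+ Treg gate against 109.4 in fl/fl (-0.26, -0.33 to -0.19), beside a non-Treg ratio of -0.05 (-0.16 to 0.05). That combined ratio joined gates of different direction. It was 0.09 (-0.07 to 0.26) in conventional CD4 cells, -0.23 (-0.48 to 0.03) in CD8 cells and -0.12 (-0.28 to 0.04) in B cells. Atf1, a cyclic AMP responsive transcription factor of the CREB family, was at 79.1 and 66.2 CPM in the Treg gate (-0.26, -0.34 to -0.17) and had a non-Treg ratio of -0.03 (-0.17 to 0.11). Against the gate's median of -0.13, both were lower. Smarcd1, a subunit of the SWI/SNF nucleosome remodeller, was at 29.1 and 32.3 CPM in the Treg gate (0.15, 0.01 to 0.29) and 0.09 on the log2 scale in the non-Treg gates. Mcrs1, a component of nuclear chromatin complexes, was at 28.1 and 29.1 CPM in the Treg gate (0.05, -0.09 to 0.19), within counting error.

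The 4 other regulators were under 10 CPM in every gate. Tfcp2, a CP2 family transcription factor, gave 209 UMIs in +/+ and 292 in fl/fl Treg-gate cells, and Csrnp2, a nuclear protein rich in cysteine and serine, gave 87 and 123; both intervals included 0. The vitamin D receptor gene Vdr gave 28 and 17 UMIs in the Treg gate (-0.96, -1.93 to -0.04) and none in the CD8 and B gates. The zinc finger gene Zfp641 gave 1 UMI in each library in the Treg gate and 0 in the other gates.

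Fmnl3 had the largest difference of the cytoskeletal members and of all 27 measured in the Treg gate. It encodes a formin, a protein that nucleates and elongates actin filaments and shapes cell protrusions. Its Treg-gate level was 25.3 CPM in +/+ (680 UMIs) and 9.19 CPM in fl/fl (292 UMIs), a log2 ratio of -1.46 (-1.67 to -1.26), or 2.76 times lower. Conventional CD4 cells had 21.9 and 15.6 CPM (-0.49, -0.97 to -0.03), CD8 cells 10.8 and 11.3 CPM (0.06, -0.83 to 0.97), and B cells, where it was highest, 44.4 and 40.7 CPM (-0.13, -0.40 to 0.15). The non-Treg interval of -0.21 (-0.43 to 0.02) included 0, and the Treg ratio lay -1.26 (-1.55 to -0.96) from it, the largest such difference of any measured member.

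The 3 alpha-tubulin genes Tuba1b, Tuba1a and Tuba1c, whose products are the building blocks of microtubules, sit side by side within the block and did not share 1 direction. Tuba1b had 148.0 CPM in the +/+ Treg gate against 165.1 in fl/fl (0.16, 0.10 to 0.22) and 152.4 against 180.3 CPM in B cells (0.24, 0.10 to 0.39), but 169.0 against 109.0 CPM in conventional CD4 cells (-0.63, -0.80 to -0.46), and 142.7 against 134.2 CPM in CD8 cells (-0.09, -0.33 to 0.15). The conventional CD4 value was the only member past 1.5-fold in a non-Treg gate (1 of 26 lower, where 3.33% of genes were, and 0 higher, 2.31%). In the CD8 gate 0 of 26 members were lower and 0 higher (3.25% and 1.54% of genes), and in the B gate 0 of 25 and 0 (2.51% and 2.26%). Tuba1a was lower in the fl/fl Treg gate, at 81.6 and 60.9 CPM (-0.42, -0.51 to -0.33), and in the non-Treg gates (-0.21, -0.35 to -0.07), while Tuba1c was at 40.0 and 36.5 CPM in the Treg gate, with a ratio of -0.13 (-0.25 to -0.01) equal to the median of all genes. These genes share sequence: 49.6% to 64.5% of the 31-base words of one whole transcript recur in another, and 8.89% to 46.7% of those in the last 300 bases, so reads could be split between them or left out.

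Cell division genes differed between the libraries in the same direction as Tuba1b in the Treg, B and conventional CD4 gates, but not in the CD8 gate, and not in the same direction as Tuba1a in the Treg gate. The 10 cell cycle genes summed to 269 CPM in the +/+ Treg gate against 435 in fl/fl, 285 and 165 CPM in the conventional CD4 gate, 192 and 271 CPM in the CD8 gate, and 233 and 487 CPM in the B gate, with none of the list at 0 in any gate. Cells with at least 2 UMIs of that list were 6.36% of the +/+ Treg gate and 11.3% of the fl/fl Treg gate. Within them Tuba1b had 508 CPM in +/+ against 495 in fl/fl (-0.04, -0.12 to 0.05), and in the remaining Treg-gate cells it was at 94.4 and 82.8 CPM (-0.19, -0.28 to -0.10). The higher fl/fl level of Tuba1b over the whole Treg gate was therefore not present in either part of it. In the conventional CD4 gate the lower fl/fl level lay in 33 and 39 cells with at least 2 such UMIs, at 707 and 291 CPM, while the other cells were at 99.8 and 93.3 CPM (-0.10, -0.31 to 0.11). Cells with at least 2 such UMIs were 4.29% of that gate in +/+ and 5.32% in fl/fl, the opposite order to its cell cycle sum.

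Racgap1 encodes a subunit of centralspindlin, which organises the midzone of the spindle at cytokinesis. Its Treg-gate level was 16.5 CPM in +/+ against 23.0 in fl/fl (0.48, 0.30 to 0.65), the highest ratio of the 27 measured members. Treg-gate cells with at least 2 cell cycle UMIs had 77.6 and 77.0 CPM of it (-0.01, -0.23 to 0.21), and the rest had 7.45 and 9.55 CPM (0.36, 0.07 to 0.65). Troap, a spindle protein gene, gave 51 UMIs in +/+ and 86 in fl/fl over the whole Treg gate, of which 48 and 82 were in the cells with at least 2 cell cycle UMIs.

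Tuba1c and Tuba1a showed other patterns when Treg-gate cells were divided in this way. Tuba1c was lower in fl/fl among cells with under 2 cell cycle UMIs, at 29.5 and 19.2 CPM (-0.62, -0.79 to -0.45), and at 111 and 106 CPM (-0.07, -0.25 to 0.12) among the others. Tuba1a was lower by the same size in both parts, at -0.47 in each. The lower fl/fl level of Tuba1a was thus as large in cells with under 2 cell cycle UMIs as in the others.

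Bin2, a membrane-curving BAR domain protein of leukocytes, was at 171.1 and 145.9 CPM in the Treg gate (-0.23, -0.29 to -0.17), but at 191.4 and 219.9 CPM in conventional CD4 cells (0.20, 0.07 to 0.34) and 254.0 and 275.5 CPM in CD8 cells (0.12, -0.06 to 0.29), with 62.7 and 57.4 CPM in B cells. Nckap5l, a microtubule-associated protein gene, was at 11.0 and 13.4 CPM in the Treg gate (0.29, 0.07 to 0.51). Lima1, which cross-links actin filaments, stayed under 10 CPM, with 128 and 99 UMIs in the Treg gate (-0.61, -1.01 to -0.23).

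**Figure D2:**
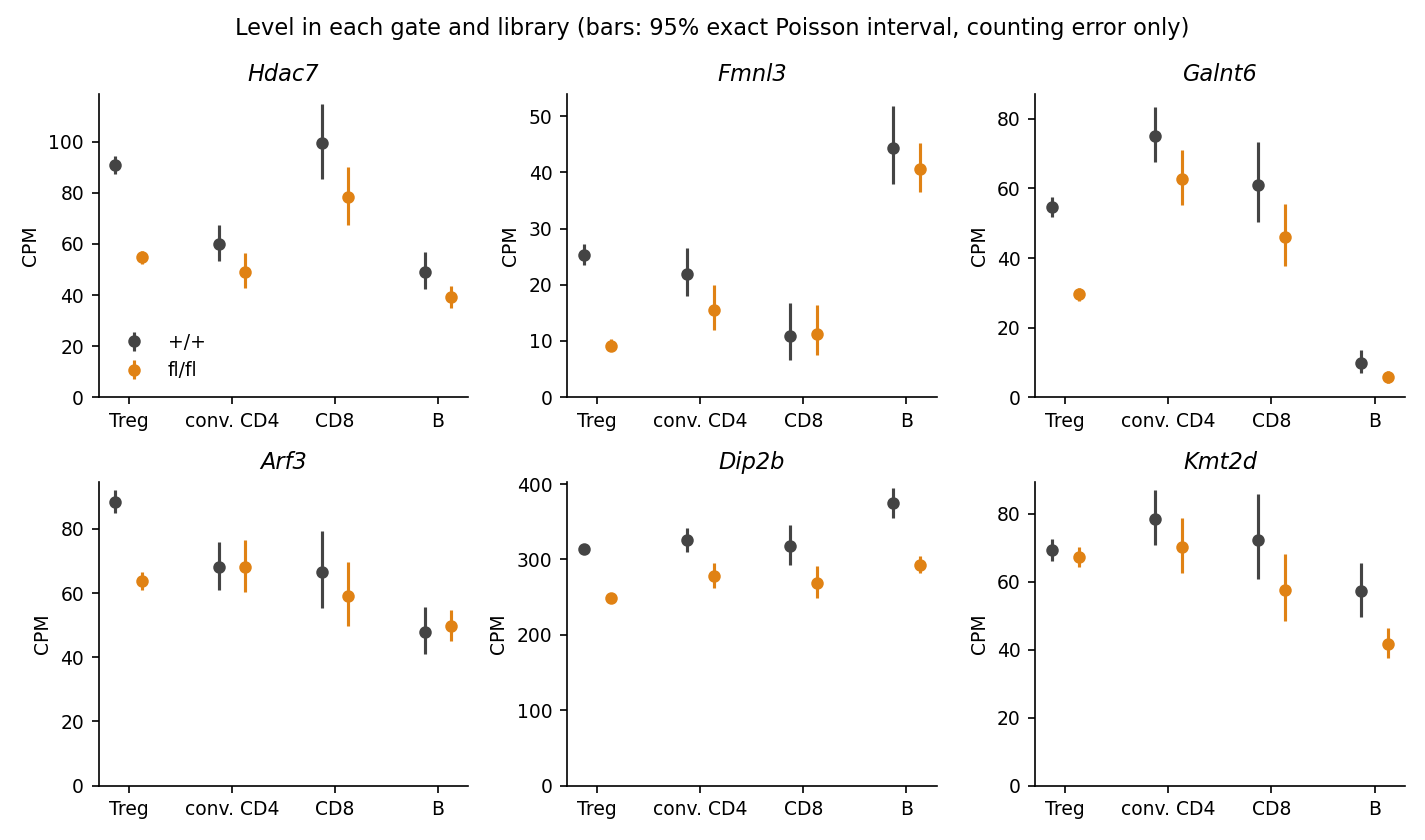
CPM (vertical axes, from 0) in the +/+ and fl/fl libraries for Hdac7, Fmnl3, Galnt6, Arf3, Dip2b and Kmt2d, in each of the 4 gates, with 95% Poisson intervals that cover counting error only. Hdac7 is lower in fl/fl in every gate, and Fmnl3 is at 25.3 and 9.19 CPM in the Treg gate beside 44.4 and 40.7 CPM in B cells.

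Galnt6 led the 9 members of metabolism, membranes and mitochondria. It encodes an N-acetylgalactosaminyltransferase, which starts mucin-type O-glycosylation in the Golgi. Its Treg-gate level was 54.6 CPM in +/+ (1465 UMIs) and 29.5 CPM in fl/fl (939 UMIs), a log2 ratio of -0.89 (-1.01 to -0.77), or 1.85 times lower. It was lower in fl/fl outside the Treg gate too: 75.1 and 62.8 CPM in conventional CD4 cells (-0.26, -0.50 to -0.02), 61.1 and 46.0 CPM in CD8 cells (-0.41, -0.80 to -0.02), and, under the 10 CPM floor, 9.81 and 5.69 CPM in B cells (-0.79, -1.44 to -0.12). The Treg ratio lay further from 0 than the non-Treg ratio of -0.34 by -0.55 (-0.77 to -0.32). Galnt6 lies at the telomere end of the block, and Hdac7 near its centromere end.

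Dip2b had nearly the same ratio in each gate. The gene encodes a member of the disco-interacting protein family. Its level was 313.6 CPM in the +/+ Treg gate against 249.4 in fl/fl (-0.33, -0.37 to -0.29), 325.6 and 278.3 CPM in conventional CD4 cells (-0.23, -0.34 to -0.11), 318.3 and 269.2 CPM in CD8 cells (-0.24, -0.41 to -0.08), and 374.8 and 293.2 CPM in B cells (-0.35, -0.45 to -0.26). The Treg and non-Treg ratios differed by -0.04 (-0.12 to 0.04), so any difference between Treg and other cells was at most 0.12 on the log2 scale within counting error. No gate reached 1.5-fold.

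No other member of that group was past 1.5-fold in a gate where it was measured. Tmbim6, which protects against death from endoplasmic reticulum stress, was at 215.4 and 186.0 CPM in the Treg gate (-0.21, -0.26 to -0.16) and had a non-Treg ratio of 0.05 (-0.04 to 0.14). The mitochondrial cytochrome oxidase assembly gene Cox14 was at 117.0 and 118.2 CPM in the Treg gate (0.01, -0.05 to 0.08) with a non-Treg ratio of 0.03, and the ceramide synthase gene Cers5 was at 63.0 and 57.4 CPM (-0.13, -0.23 to -0.04) with -0.11. Both thus had like ratios inside and outside the Treg gate. The iron transporter gene Slc11a2 was at 12.9 and 9.53 CPM in the Treg gate (-0.44, -0.66 to -0.21), the heme transporter gene Slc48a1 at 13.8 and 11.1 CPM (-0.32, -0.53 to -0.10) and the mitochondrial protein gene Letmd1 at 8.16 and 10.5 CPM (0.36, 0.11 to 0.61). Pfkm, the muscle form of the glycolytic enzyme phosphofructokinase, was under the floor with 79 and 126 UMIs (0.43, 0.01 to 0.85).

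Of the 8 signalling members, 3 were measured in the Treg gate: Arf3, Prkag1 and Lmbr1l. Each was lower in fl/fl there, with a non-Treg interval that included 0. Only for Arf3 did the Treg and non-Treg ratios differ beyond counting error. Arf3 is an ADP-ribosylation factor, a small GTPase of vesicle traffic at the Golgi. Its level was 88.4 CPM in the +/+ Treg gate against 63.7 in fl/fl (-0.47, -0.56 to -0.39), 68.2 and 68.1 CPM in conventional CD4 cells (-0.00, -0.24 to 0.23), 66.5 and 58.9 CPM in CD8 cells (-0.17, -0.53 to 0.19) and 48.0 and 49.8 CPM in B cells (0.05, -0.21 to 0.32). The difference between its Treg and non-Treg ratios was -0.46 (-0.63 to -0.28). Prkag1, a regulatory subunit of the energy sensor AMPK, was at 50.3 and 45.0 CPM in the Treg gate (-0.16, -0.27 to -0.05) with a non-Treg ratio of -0.13. Lmbr1l, a lipocalin receptor family membrane protein, was at 46.4 and 40.6 CPM (-0.19, -0.31 to -0.08) with a non-Treg ratio of -0.09.

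The remaining 5 signalling members were under the floor in all gates. In Treg-gate cells Rapgef3, a cyclic AMP activated exchange factor for Rap, gave 12 UMIs in +/+ and 45 in fl/fl (1.66, 0.72 to 2.72), and the calcium channel beta subunit gene Cacnb3 gave 42 and 14 (-1.83, -2.82 to -0.93). Rnd1, the gene of an atypical small GTPase, gave 42 and 21 UMIs (-1.24, -2.07 to -0.46). These 3 had large ratios on few molecules, between 0.44 and 1.57 CPM. Adcy6, an adenylyl cyclase, gave 101 and 83 UMIs (-0.53, -0.96 to -0.09), and the Rheb-like GTPase gene Rhebl1 gave 96 and 118 (0.05, -0.35 to 0.46).

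Of the 8 members that handle RNA and protein, none was past 1.5-fold in a gate where it was measured. Larp4, which binds and stabilises polyadenylated mRNA, was at 79.6 and 70.6 CPM in the Treg gate (-0.17, -0.26 to -0.09) and 81.0 and 64.0 CPM in conventional CD4 cells (-0.34, -0.57 to -0.11). Senp1, a protease that removes SUMO from proteins, was at 54.5 and 52.7 CPM in the Treg gate (-0.05, -0.15 to 0.06), and the spliceosomal helicase gene Ddx23 was at 35.2 and 35.5 CPM (0.01, -0.11 to 0.14). Neither of the last 2 differed in that gate beyond counting error, but Ddx23 was at 50.2 and 40.3 CPM in B cells (-0.32, -0.58 to -0.05). Asb8, a SOCS box protein gene, was at 15.02 and 13.1 CPM (-0.20, -0.40 to 0.00). Fkbp11, a prolyl isomerase of the endoplasmic reticulum in secretory cells, was measured in the B gate alone, at 45.5 and 46.0 CPM (0.02, -0.25 to 0.29), with 28 and 38 UMIs in the Treg gate.

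The other 3 of these genes were under the floor. The splicing factor gene Prpf40b gave 90 and 87 UMIs in the Treg gate, the RNA methyltransferase gene Bcdin3d gave 177 and 199, and Spats2 gave 38 and 40. None of the 3 Treg intervals excluded 0. Outside the Treg gate Bcdin3d was at 2.73 and 6.17 CPM in B cells (1.18, 0.19 to 2.32), and Spats2 gave 0 and 6 UMIs in conventional CD4 cells. In all, 16 of the 43 members were under 10 CPM in both libraries of the Treg gate.

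The 2 ratios of each member were then set against each other. The interval of the Treg minus non-Treg difference lay below 0 for 9 of the 27 members measured in the Treg gate (30.4% of all genes) and above 0 for 3 (11.5%). The 9 were Hdac7, Ccnt1, Arf3, Tuba1a, Fmnl3, Tmbim6, Atf1, Bin2 and Galnt6, and the 3 were Tuba1b, Racgap1 and Letmd1. Both shares are near those of all genes, so they are no result about the block. These differences are read against 0, although the medians of all genes were -0.13 in the Treg gate and -0.04 outside it. The upper limits for Ccnt1 (-0.08), Tuba1a (-0.05) and Atf1 (-0.06) were no larger in size than the gap between those medians. Both intervals lay below 0 for 5 of 27 members (Hdac7, Tuba1a, Larp4, Dip2b and Galnt6), and 14.3% of all 7626 genes measured in both had that pattern. Of these 5, Dip2b (-0.33 and -0.29) and Larp4 (-0.17 and -0.13) had ratios alike inside and outside the Treg gate, whereas Hdac7, Tuba1a and Galnt6 were further below 0 inside it.

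**Figure D3:**
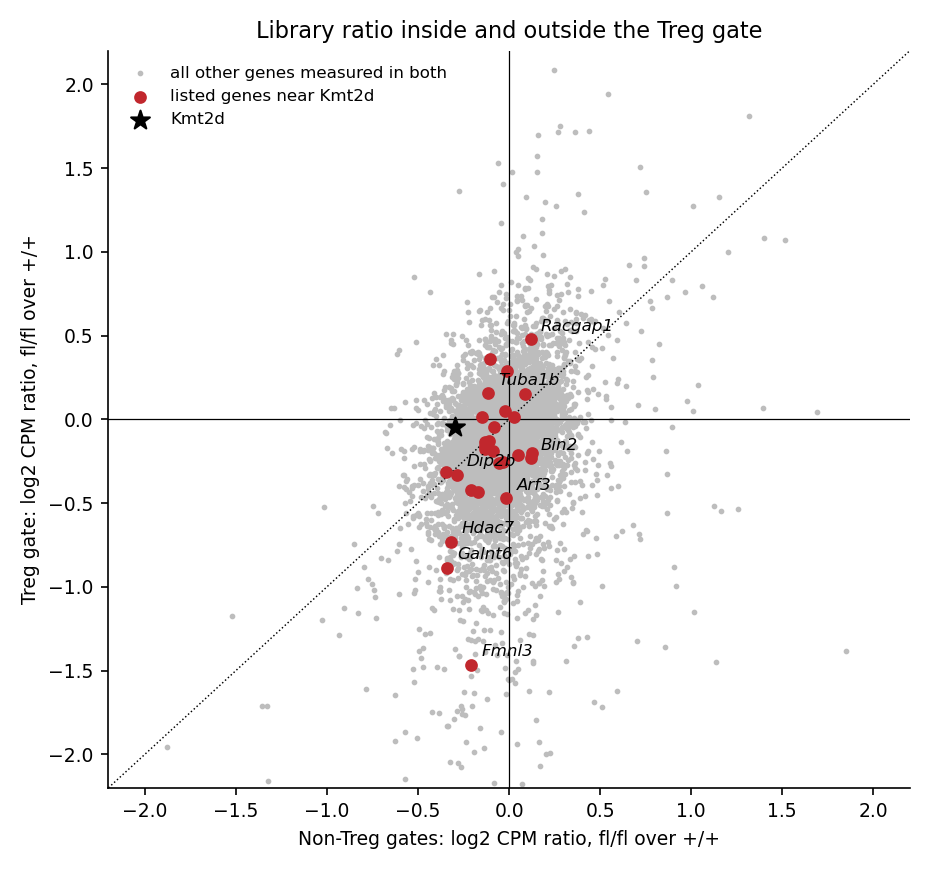
Log2 ratio of fl/fl to +/+ in the Treg gate (vertical axis) against the non-Treg gates combined (horizontal axis) for the measured members, with all genes measured in both in grey except 16 beyond the axes, Kmt2d as a star and equal ratios as a dotted line. Dip2b sits near that line at -0.33 in the Treg gate and -0.29 outside it, while Fmnl3 at -1.46 and -0.21 lies far from it.

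The Treg gate itself differed in its makeup between the libraries. The median cell of the gate held 5688 UMIs in +/+ and 6969 in fl/fl. A list of 7 resting Treg genes summed to 2436 and 3563 CPM and the 10 effector Treg genes to 880 and 672 CPM, with none at 0. Neither list had 1 direction throughout. In the resting list Tcf7 was lower in fl/fl (237 and 167 CPM) and the other genes were higher. In the effector list Gzmb (13.1 and 50.4 CPM), Icos and Prdm1 were higher in fl/fl, and the other genes were lower. The largest fall in CPM among them was that of Tnfrsf9 (328 and 155 CPM). Among the 889 and 717 cells of the gate with a Foxp3 UMI the log2 ratio was -0.78 for Hdac7, -1.63 for Fmnl3, -0.76 for Galnt6 and -0.39 for Dip2b, and among cells with none it was -0.72, -1.42, -0.92 and -0.31. These 4 genes were thus lower in fl/fl in both parts, and the first 3 were past 1.5-fold in each. Arf3 was at -0.27 and -0.53, and Racgap1 at 0.26 (-0.11 to 0.64) and 0.53 (0.34 to 0.73). Tuba1c was at -0.48 (-0.75 to -0.21) in cells with a Foxp3 UMI and -0.04 (-0.18 to 0.10) in those without.

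**Figure D4:**
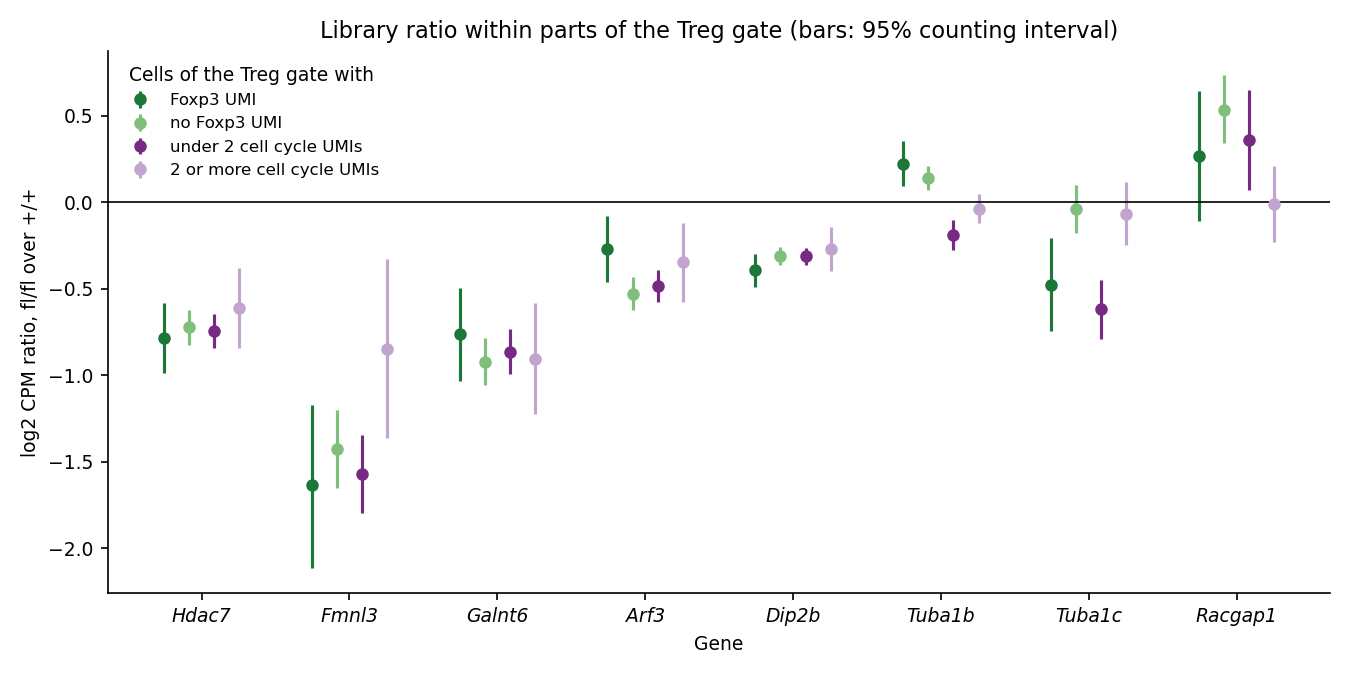
Log2 ratio of fl/fl to +/+ with 95% counting intervals for selected members in parts of the Treg gate: cells with and without a Foxp3 UMI, and with under 2 or at least 2 cell cycle UMIs. Fmnl3, Galnt6, Hdac7, Arf3, Dip2b and Tuba1c lie below 0 in all 4, while Tuba1b and Racgap1 lie on both sides of 0. The Tuba1c interval includes 0 in cells without a Foxp3 UMI and in those with at least 2 cell cycle UMIs.

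Kmt2d lies at chr15:98831669-98871204 on the minus strand (ENSMUSG00000048154). Its level was 69.4 CPM in the +/+ Treg gate against 67.3 in fl/fl (-0.04, -0.13 to 0.05), 78.5 and 70.3 CPM in conventional CD4 cells (-0.16, -0.39 to 0.07), 72.4 and 57.7 CPM in CD8 cells (-0.33, -0.68 to 0.03) and 57.2 and 41.8 CPM in B cells (-0.45, -0.71 to -0.20). The non-Treg ratio of -0.29 (-0.44 to -0.15) was lower than the Treg ratio, by 0.25 (0.08 to 0.42). A 3' tag can lie outside the deleted exons, whose position the labels do not give, so these counts do not check the deletion or the labels.

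Along the chromosome the region around Kmt2d did not hold a larger share of lower genes than the rest. In the Treg gate 3 of 32 measured genes within 2 Mb of Kmt2d were lower by 1.5-fold (9.38%, the 3 members already named), against 37 of 284 measured genes further away (13.03%), and the median ratios were -0.18 and -0.13. In the non-Treg gates 0 of 34 genes within 2 Mb were lower, against 7 of 285 further away (2.46%), with medians of -0.07 and -0.04. On chromosome 15 the largest ratios shared by both sets of gates lay far from Kmt2d: Apobec3, at -18.9 Mb (negative towards the centromere), had log2 ratios of -3.02 in the Treg gate and -3.24 in the non-Treg gates, and its neighbour Cbx7 had -1.71 and -1.36. These 2 genes were chosen after their values were seen. Of the genes that lie between the 43 but are not among them, 4 were measured in at least 1 of the 2 sets of gates. None of these was past 1.5-fold where it was measured.

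Up to 5 Mb beyond the block, 40 genes were measured in the Treg gate, in the non-Treg gates combined, or in both. By the same rule 3 of them were lower in the fl/fl Treg gate, where 9.49% of all measured genes were. This count is no result about the region. Itgb7, the beta chain of a gut-homing integrin, was at 205.7 and 119.3 CPM (-0.79), the retinoic acid receptor gene Rarg at 25.3 and 10.7 CPM (-1.24), and Prr13 at 128.3 and 79.0 CPM (-0.70). Itgb7 was also lower in the non-Treg gates (-0.32), whereas Prr13 was not (0.17). Rarg, under 10 CPM over the non-Treg gates, had a ratio of -0.92 (-1.41 to -0.44) there, and was at 15.6 and 7.79 CPM in conventional CD4 cells (interval of the log2 ratio -1.65 to -0.39). In the non-Treg gates 1 such gene was lower, Grasp (-0.71, -0.99 to -0.44), with 38.2 and 20.2 CPM in the B gate. Over all genes 0.855% were lower there. Grasp was under 10 CPM in the Treg gate.

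**Figure D5:**
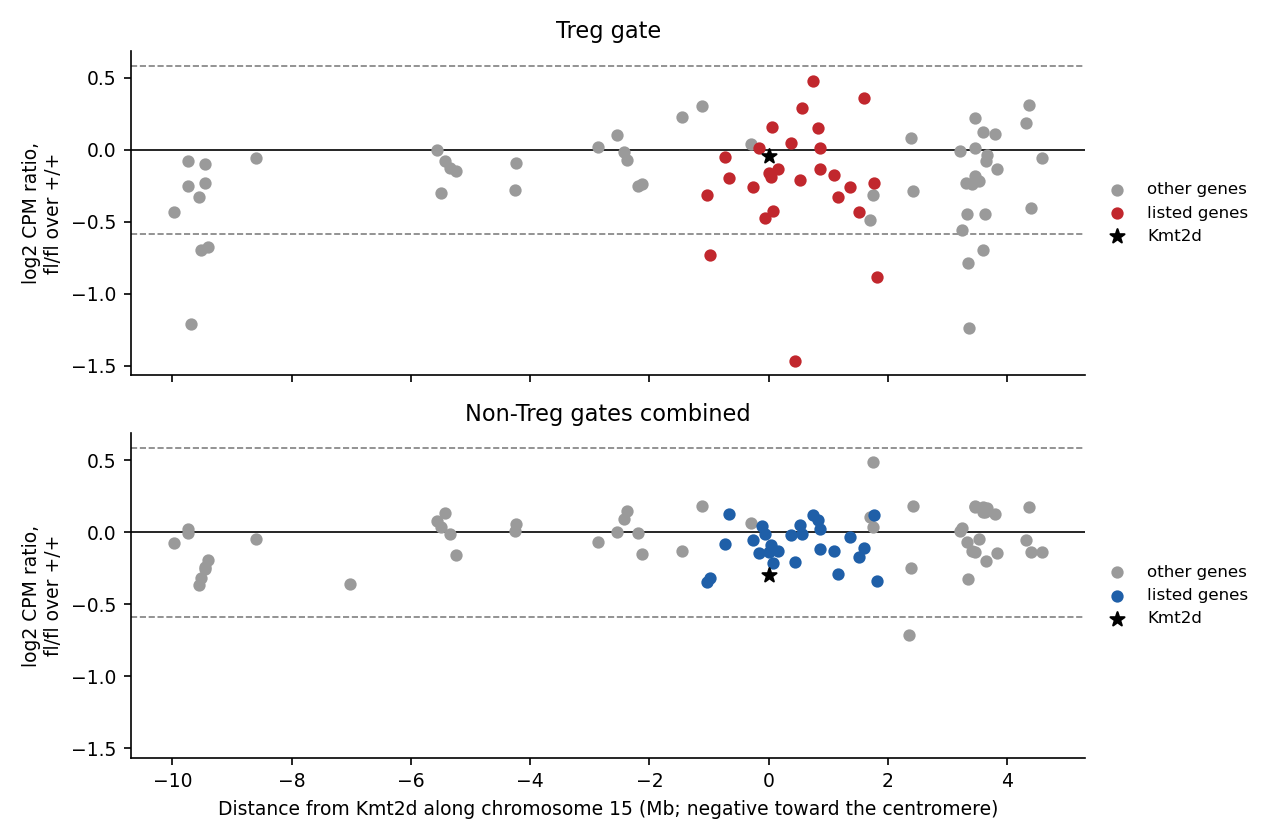
Log2 ratio of fl/fl to +/+ for measured chromosome 15 genes by distance from Kmt2d, from 10 Mb on the centromere side to the telomere end, in the Treg gate and in the non-Treg gates combined, with the members in colour, Kmt2d as a star and 1.5-fold as dashed lines. In the Treg gate genes below the lower line are found both among the members and beyond them, and in the non-Treg gates 1 gene (Grasp) lies below it.

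Some counts near each other could share reads. The 3' ends of Slc48a1 and Hdac7 overlap by 29 bases on opposite strands, and the starts of Senp1 and Pfkm overlap by 1156 bases, also on opposite strands. The annotated gene Gm49450 overlaps Tuba1b and Tuba1a on their own strand, with 74 and 83 UMIs in the 2 libraries. Whether the authors' counting kept strands and introns apart is not given in the sources used here. Beyond the divisions of the Treg gate given above, the part of cell cycle, resting and effector gene levels and of depth in the results was not tested. Linked DNA and the loss of Kmt2d in Foxp3-expressing cells cannot be told apart for a gene whose ratio differed in the Treg gate, since the design varies both together.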

How the data were processed

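Single-cell 3' RNA libraries from 2 pools of sorted spleen cells were analysed. The deposited matrices hold whole-number UMI counts per gene and cell, per the file headers; Cell Ranger 7.1.0, Seurat 4.1.1 and fastp are named in the submitters' processing notes, with mm10 (GRCm38) as the build. Barcodes with at least 500 genes and at most 10% mitochondrial UMIs were kept. Treg, conventional CD4, CD8 and B gates were set on raw UMIs of CD3, B, CD8, Cd4, Foxp3, Ikzf2 and myeloid genes; gates are ranges of counts, not cell types. UMIs were summed per gate and library and divided by the gate's total (CPM). The ratio fl/fl over +/+ has a 95% exact binomial interval, and the non-Treg ratio is a Mantel-Haenszel ratio over 3 gates. A gene is measured at 10 CPM in either library and past the fold at 1.5 with an interval excluding 1. No doublet caller was run: 87 and 175 cells with T and B markers together fell outside the gates. All 43 members and Kmt2d are named, with chromosome 15 genes past the fold within 5 Mb of the outermost members. The members and lists were chosen with earlier results of these data known. Counts of intervals on one side of 0 and the divisions of the Treg gate were chosen after seeing the data. One marker gene, and a stratified alternative that needs it, are not reported here. Positions are from GENCODE M21 (31184 of 31253 genes) and start regions from RefSeq (GRCm38.p6). Python 3.11.15, scipy 1.17.1 and pandas 2.3.3 were used. The code for the ratios was run on simulated counts with counting error only, which cannot cover differences between pools or mice. Depth, other scalings, floors, folds, gates and cell filters were tried as alternatives.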

Additional observations from a re-analysis of the deposited data

Results flagged for a closer look

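For Tuba1b the counting intervals of the 2 ratios lay on opposite sides of 0: the log2 ratio was 0.16 in the Treg gate and -0.12 in the non-Treg gates, a difference of 0.27. Bin2 had the opposite order, -0.23 in the Treg gate and 0.12 in the non-Treg gates, a difference of -0.35. With 1 library per genotype neither difference was tested against replicates. Intervals on opposite sides of 0 were found for 391 of the 7626 genes measured in both (5.13%).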

How the results depend on the processing

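No paired analysis was possible because each genotype has 1 library, and for the same reason no library could be left out. Over 7 alternatives that give Treg-gate ratios, the log2 ratio ranged from -0.83 to -0.60 for Hdac7, -1.63 to -1.33 for Fmnl3, -0.93 to -0.76 for Galnt6 and -0.39 to -0.20 for Dip2b. The alternative that gates on thinned counts rests on 1 random draw. Scaling by the median gene moved the members' Treg median to -0.062 and put 1 member (Racgap1) past the fold upwards; it also turned Kmt2d from -0.04 to 0.09 there. At a lower fold (0.32 on the log2 scale), 7 members were lower and 2 higher in the Treg gate and 1 was lower (Galnt6) in the non-Treg gates. With no CPM floor, 7 were lower and 1 higher (Rapgef3) in the Treg gate and 1 was higher (Rnd1) in the non-Treg gates. Without cells holding 2 or more cell cycle UMIs, 1 member was lower (Fkbp11, -0.72) in the non-Treg gates; there Tuba1b was at -0.19 and Tuba1c at -0.62 in the Treg gate. Without the 5% of cells with most UMIs, 1 member (Racgap1) was higher in the Treg gate. In the conventional CD4 gate alone 1 member was lower (Tuba1b), where 3.33% of all genes were. For the other alternatives the share of all genes past the fold was not computed, so their counts are no result about the block. Depth limits the 16 members under the floor, whose ratios rest on few molecules.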
